A study of Mus musculus with 2 samples.

Results

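The nuclear receptor family was described in whole liver of mouse embryos, through 45 receptor genes taken by symbol from the 43346 genes in the deposited tables. The members are a list of receptor symbols that does not hold every nuclear receptor gene of the mouse, so sums and places in the order of levels are over these 45. Each has a row in both libraries, and 2 of them, Pgr and Nr4a3, had 0 counts in both. Nuclear receptors are transcription factors that sit on DNA and are switched by small fat-soluble molecules such as hormones, vitamins, fatty acids and bile acids. Many of them work as a pair with a retinoid X receptor (RXR), and without their ligand several recruit corepressors that keep target genes quiet. In the liver they set bile acid, lipid, glucose and drug metabolism, and in the embryo they carry thyroid hormone, retinoic acid and glucocorticoid signals.

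The tissue came from untreated B6NCrl mice at embryonic day 15.5, in a single group with 2 libraries that the labels number as biological replicates. Replicate 1 pooled the livers of 78 embryos and replicate 2 those of 62, males and females together in each pool. Each library used 10 ng of total RNA longer than 200 nt, with synthetic spike-in RNAs added. No treated, mutant or control group was part of the design, so levels could be compared between genes and between the 2 libraries, and no test between conditions was possible.

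Levels are TPM, abundances divided by transcript length and scaled to a total of 1000000 per library without the spike-ins, and a pair of values is always replicate 1 followed by replicate 2. Depth without spike-ins was 34039426 and 44200838 expected counts. All 12 hepatocyte markers and all 11 erythroid markers were detected, with summed levels of 51845 and 41846 TPM and of 384611 and 392696 TPM. Both hepatocyte and red cell RNA were thus abundant, and the RNA came from a mixture of cells. In such bulk tissue, fewer cells of a type and less receptor RNA per cell cannot be told apart. The libraries are taken as separate replicates from their labels. Their counts were compared only to see whether both could be a single library, and differed beyond sampling noise (chi-square of 20.0 per degree of freedom). That value does not say whether the spread is biological or technical.

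Most of the family was present at low levels. Of the 45 members, 24 reached 1 TPM in both libraries, 1 (Nr0b2) in replicate 1 alone and 20 in neither. The detected share of 53.3% was near the 53.1% of all protein-coding genes that reached 1 TPM in both libraries. The members summed to 230 and 209 TPM (220 ± 15.0, SD, n = 2), which was 0.0230% and 0.0209% of all TPM. The 5 highest receptors held 60.1% and 61.1% of that sum. Detected members had a median of 4.76 and 4.24 TPM, against 11.7 and 11.3 TPM for detected protein-coding genes, and 18 of the 24 lay below that median in both libraries.

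**Figure D1:**
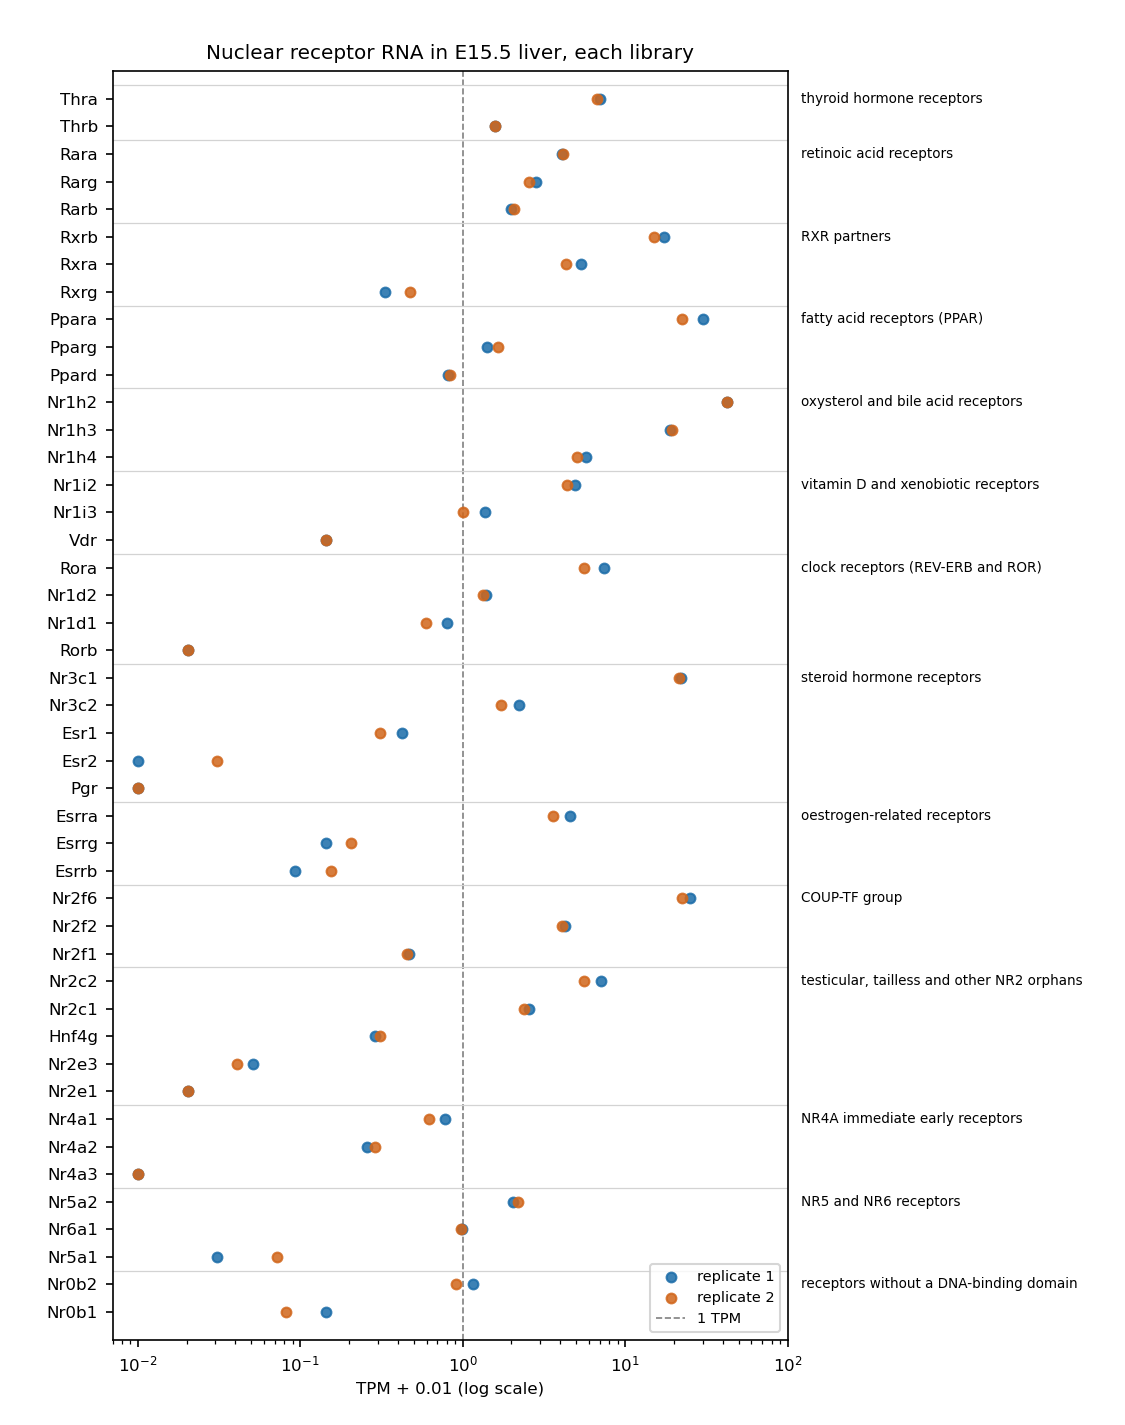
Level of each of the 45 receptor genes (TPM + 0.01, log scale) in replicate 1 (blue) and replicate 2 (orange), grouped by receptor class, with a dashed line at 1 TPM. Nr1h2 was the highest at 42.3 and 42.4 TPM, 20 genes lay left of the line in both libraries, and the pair of points of a gene mostly sat close together beside the distance between genes.

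The oxysterol and bile acid receptors formed the most abundant class at 66.9 ± 0.0992 TPM (SD, n = 2). Nr1h2 encodes LXRβ, the widely expressed liver X receptor that senses oxidised cholesterol (chromosome 7, 44549616 to 44553951, GRCm38). Its level was 42.3 TPM in replicate 1 and 42.4 TPM in replicate 2, from 2281 and 3029 counts. It was the highest of all members in both libraries and ranked 2205 of 21474 protein-coding genes by mean TPM. Nr1h3 encodes LXRα, the form typical of liver, fat and macrophages (chromosome 2, 91184061 to 91202834). It stood at 18.9 and 19.4 TPM from 1003 and 1384 counts. Nr1h2 thus exceeded Nr1h3 by 2.23 and 2.18 times, a ratio of 2.21 ± 0.0387 (SD, n = 2). Nr1h4 encodes FXR, the bile acid receptor, and was lower at 5.78 and 5.05 TPM.

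The fatty acid receptors were led by Ppara. PPARα drives the oxidation of fatty acids and the making of ketones in liver (chromosome 15, 85734983 to 85802819). Its gene stood at 30.0 TPM in replicate 1 and 22.3 TPM in replicate 2, from 1552 and 1524 counts, and took the place after Nr1h2 in the order of mean levels. Pparg, the receptor of the fat cell program, was at 1.41 and 1.64 TPM. Ppard, the broadly expressed form, was at 0.798 and 0.826 TPM, below the detection limit in both libraries. Ppara exceeded Pparg by 21.3 and 13.6 times and Ppard by 37.6 and 27.0 times, so the order of the 3 genes was the same in both libraries while the size of the gap was not. Macrophages can also express Pparg: the 10 macrophage markers were all detected and summed to 402 and 347 TPM. Of 6 adipocyte markers 1, Fabp4, was detected, and 4 were at 0 in both libraries. The part of other cell types in the Pparg level was not tested.

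The level of Ppara depended on how short transcripts are weighed. The annotated transcript Ppara-205 is a processed transcript of 315 nt. It held 30.9% and 25.7% of the gene's TPM but only 62.5 and 51.9 of its counts, because TPM divides by length. Summed over transcripts of at least 1000 nt, Ppara stood at 19.0 and 14.5 TPM and fell from place 2 to place 5 in the order of mean levels. This sum was chosen after the data were seen.

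Receptors for steroids were represented almost wholly by the glucocorticoid receptor. Nr3c1, the receptor for cortisol and corticosterone, stood at 22.2 and 21.4 TPM from 2023 and 2477 counts. Nr3c2, the mineralocorticoid receptor, was at 2.23 and 1.72 TPM. Nr3c1 exceeded it by 9.98 and 12.4 times. The Nr3c2 value rests on a transcript of 612 nt, Nr3c2-206, with 65.9% and 58.7% of the gene's TPM, and over transcripts of at least 1000 nt the gene was at 0.756 and 0.712 TPM. The sex steroid receptors lay below 1 TPM. Esr1 (oestrogen receptor α) stood at 0.414 and 0.299 TPM from 60 and 57 counts. Esr2 (oestrogen receptor β) had 0 and 3 counts, and Pgr, the progesterone receptor, had 0 in both. A count of 0 allows up to 3 counts, or 0.0881 and 0.0679 counts per 1000000 counts of the library, and covers counting error only.

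Among the obligate partners, Rxrb exceeded Rxra. RXRα, encoded by Rxra (chromosome 2, 27676440 to 27762957), is the main RXR of adult liver. Here Rxrb, on chromosome 17 (34031812 to 34038399), stood at 17.2 and 15.2 TPM and Rxra at 5.36 and 4.31 TPM. Their ranges did not overlap, and the ratio of Rxrb to Rxra was 3.22 and 3.51. Rxrg, the form of muscle and brain, was at 0.321 and 0.464 TPM from 17 and 32 counts. The 9 skeletal and heart muscle markers were all higher in replicate 2, at summed levels of 270 and 399 TPM, and their part in the Rxrg level was not tested. Counts gave a smaller gap than TPM, with 1192 and 1410 for Rxrb and 802 and 870 for Rxra, Rxra-201 being 4905 nt and Rxrb-202 2283 nt long.

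The thyroid hormone receptors differed in level. Thra, which encodes the widespread TRα, stood at 6.99 and 6.67 TPM. Thrb, which encodes TRβ, the main thyroid hormone receptor of adult liver, stood at 1.56 and 1.58 TPM. Thra exceeded Thrb by 4.47 and 4.22 times. The 3 retinoic acid receptors, which bind vitamin A acid and pair with RXR, lay within a narrow band. Rara was at 4.07 and 4.16 TPM, Rarg at 2.82 and 2.57 TPM and Rarb at 1.98 and 2.05 TPM, in the same order in both libraries. By the posterior mean, the other deposited estimate, Rarg stood at 5.75 and 4.69 TPM and led the 3 genes.

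The xenobiotic receptors, which switch on drug-clearing enzymes, were present at low levels. Nr1i2 encodes PXR and stood at 4.94 and 4.40 TPM from 378 and 453 counts. Nr1i3 encodes CAR and stood at 1.37 and 1.00 TPM, at the limit of detection in replicate 2. The Nr1i3 value needs care: 74.9% of its annotated exon bases overlap exons of Tomm40l on the opposite strand, a gene at 15.1 and 14.7 TPM. The sources used here do not state whether the counting used strand, so reads in the overlap cannot be assigned with certainty. Vdr, the vitamin D receptor, was low at 0.135 and 0.134 TPM from 13 and 22 counts.

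The clock receptors repress or activate the same response elements in opposition, REV-ERB as repressors and ROR as activators. Rora (RORα) was the highest at 7.45 and 5.54 TPM. Nr1d2 (REV-ERBβ) followed at 1.38 and 1.32 TPM and Nr1d1 (REV-ERBα) at 0.787 and 0.588 TPM. Rora exceeded Nr1d1 by 9.46 and 9.42 times. Rorb, a receptor of retina and brain, had 3 and 4 counts, and none of 5 retina markers was detected. The hour of collection is not given in the sources used here, and the levels of these genes in adult liver change over the day.

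Orphan receptors, which lack a settled natural ligand, included one of the most abundant members. Nr2f6 (EAR2), of the COUP-TF group, stood at 24.9 and 22.3 TPM (chromosome 8, 71374123 to 71381960), level with Ppara within the spread of the libraries. Of its annotated exon bases, 54.4% overlap Ocel1 on the opposite strand, which was itself at 4.79 and 4.26 TPM. Nr2f2 (COUP-TFII), a factor of veins and mesenchyme, was at 4.24 and 4.10 TPM and Nr2f1 (COUP-TFI) at 0.456 and 0.444 TPM. The testicular receptors Nr2c2 (TR4) and Nr2c1 (TR2), which bind the repeats that direct embryonic globin genes in red cell precursors, stood at 7.09 and 5.56 TPM and at 2.57 and 2.36 TPM. Of the Nr2c2 exon bases, 30.7% overlap Mrps25 on the opposite strand, a gene at 31.9 and 39.5 TPM, so part of its reads carry the same doubt as those of Nr1i3. Esrra, an oestrogen-related receptor that drives mitochondrial genes, was at 4.59 and 3.57 TPM, while Esrrg was at 0.135 and 0.196 TPM and Esrrb at 0.0829 and 0.145 TPM.

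Of the NR5 and NR6 receptors, Nr5a2 encodes LRH-1, which supports bile acid synthesis, and stood at 2.03 and 2.19 TPM. Its count ratio of replicate 2 to replicate 1 was 0.981 (0.826 to 1.17, counting error only). It is also a gene of exocrine pancreas, of whose 12 markers 6 were detected. All 12 summed to 163 and 53.4 TPM, with Pnlip at 0, and their part in the Nr5a2 level was not tested. Nr6a1 (GCNF), a repressor of early embryonic genes, lay just under the limit at 0.984 and 0.970 TPM, and over it by the posterior mean, at 1.69 and 1.59 TPM. Its neighbour on chromosome 2, Nr5a1 (SF1), the steroid factor of adrenal and gonad, had 2 and 7 counts although the genes lie 8.83 kb apart. Of 7 adrenal cortex and gonad markers 3 were detected. All 7 summed to 32.8 and 26.5 TPM, of which Hsd3b1 made up 28.0 and 22.5 TPM. Nr0b2 encodes SHP, a receptor without a DNA-binding domain that mediates feedback by bile acids, and stood at 1.15 and 0.898 TPM from 37 and 39 counts. Its relative Nr0b1 (DAX1) had 7 and 5 counts.

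The immediate early receptors of the NR4A group, which are induced within minutes of a stimulus in many cells, were all below 1 TPM. Nr4a1 stood at 0.767 and 0.609 TPM and Nr4a2 at 0.249 and 0.279 TPM, and Nr4a3 had 0 counts in both libraries. The remaining low members were Hnf4g, a receptor of gut, at 0.280 and 0.299 TPM, Nr2e3, a receptor of photoreceptors, with 2 and 1 counts, and Nr2e1, a receptor of neural stem cells, with 1 count in each library. In all, 8 of the 45 members had fewer than 10 counts in both libraries. Their order was not resolvable at this depth.

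In the order of the 24 detected members, 12 of the 23 neighbouring pairs had ranges that overlapped between the libraries and 11 did not. In the upper part of the order, Ppara and Nr2f6 overlapped, and the ranges of Nr1h2, Nr3c1, Nr1h3 and Rxrb overlapped with no neighbour. Some of these gaps were small beside the spread, as between Nr2f6 at 24.9 and 22.3 TPM and Nr3c1 at 22.2 and 21.4 TPM. In the middle part, from Thra through Rora, Nr2c2, Nr1h4 and Rxra to Nr1i2, each gene overlapped the next. Ranges of 2 values are a loose guide to the true spread.

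Several members are linked in 2 related blocks of the genome, with gaps of up to 841 kb between them. On chromosome 11, Thra (98740638 to 98769006, plus strand), Nr1d1 (98767932 to 98775333, minus strand) and Rara (98927818 to 98974942, plus strand) lie in that order, the last 2 of them 152 kb apart. On chromosome 14, Rarb (16430839 to 16819156, minus strand), Thrb (17660261 to 18038090, plus strand) and Nr1d2 (18204054 to 18239127, minus strand) lie in that order. Each block thus holds a thyroid hormone, a retinoic acid and a REV-ERB receptor. The thyroid hormone and retinoic acid receptors were higher in the chromosome 11 block in both libraries, by 4.47 and 4.22 times for Thra over Thrb and by 2.06 and 2.03 times for Rara over Rarb. The REV-ERB pair ran the other way, with Nr1d2 at 1.38 and 1.32 TPM above Nr1d1 at 0.787 and 0.588 TPM. The 3′ ends of Thra and Nr1d1 overlap on opposite strands over 263 bases of exon, 8.55% of the Nr1d1 exon bases. Among Rarb exons, 34.1% of bases overlap Top2b on the opposite strand, a gene at 18.6 and 18.1 TPM. Reads in these overlaps carry the same doubt as those of Nr1i3.

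Transcripts were compared to see which forms of each receptor were made. Among the 22 detected members with 2 or more annotated forms, 1 form led in both libraries for 19 (86.4%), near the 90.4% of all such detected genes. Shares are estimates that split shared reads between overlapping forms, and transcript ends were not measured. Thra-202, whose 3′ end stops short of Nr1d1 and which encodes the hormone-binding TRα1, held 54.4% and 55.3% of Thra TPM. Thra-201, which runs into Nr1d1 and encodes TRα2, a form that does not bind hormone, held 40.3% and 37.2%. The form that overlaps Nr1d1 was thus the lesser one in both libraries. For Nr1d1 itself, Nr1d1-201 held all of the TPM.

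Several receptors have more than one annotated start, and for some the choice was lopsided. All of the Pparg TPM in both libraries went to Pparg-202, which begins at the upstream start of the broadly expressed form PPARγ1, from 77 and 121 counts. Pparg-201, the fat cell form PPARγ2 with its own downstream start, was estimated at 0 in both, and by the posterior mean at 17.4% and 16.8%, with no counts. For Rora, Rora-202 from the most downstream start at 69289682 on chromosome 9 held 76.2% and 77.8%, and the starts near 68653786 held 23.8% and 22.2%. For Rarg, Rarg-202 from the downstream start at 102246500 on chromosome 15 held 78.7% and 91.1%. By the posterior mean that start held only 37.9% and 48.1%, and a start at 102250346, with no counts, held 45.7% and 41.8% and led in replicate 1, so the main Rarg start depended on the estimate. By TPM, the upstream Rarg-201 held 17.6% in replicate 1 and 0 in replicate 2, where Rarg-205 from the same group of starts held 3.23%, against 0 in replicate 1. For Nr1h4, the upstream transcript Nr1h4-203 held 70.3% and 67.7% and the downstream Nr1h4-201 held 29.7% and 32.3%, a stable split.

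The windows of the alternative starts show how their base composition differs. For Pparg, all of the TPM was assigned to the form from the upstream start. The stretch before that start (Pparg-202, chr6:115360894-115360950, plus strand, up to the first annotated exon base) is dense in CG pairs. The window of the downstream start (Pparg-201, chr6:115421816-115422065, plus strand), whose form was estimated at 0 TPM, is not. CG pairs are in capitals, and the sequences are RefSeq's for GRCm38.p6, 5′ to 3′.
Pparg-202: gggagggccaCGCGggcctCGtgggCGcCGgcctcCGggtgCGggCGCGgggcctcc
Pparg-201: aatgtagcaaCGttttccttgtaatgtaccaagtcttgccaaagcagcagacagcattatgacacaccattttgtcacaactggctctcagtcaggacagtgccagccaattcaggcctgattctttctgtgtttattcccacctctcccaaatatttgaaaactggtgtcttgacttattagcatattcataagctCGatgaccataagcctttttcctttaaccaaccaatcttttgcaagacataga
The full 250 bases before each RefSeq start held 38 and 2 CG pairs, beside a median of 6 over all 32851 start windows in the table. Of the Pparg-202 window only the first 57 bases, with 9 CG pairs, lie before the first annotated exon base. For Rarg the same view (Rarg-202, chr15:102246501-102246750, and Rarg-201, chr15:102257523-102257772, both minus strand) gave 10 and 11 CG pairs, nearly the same number.
Rarg-202: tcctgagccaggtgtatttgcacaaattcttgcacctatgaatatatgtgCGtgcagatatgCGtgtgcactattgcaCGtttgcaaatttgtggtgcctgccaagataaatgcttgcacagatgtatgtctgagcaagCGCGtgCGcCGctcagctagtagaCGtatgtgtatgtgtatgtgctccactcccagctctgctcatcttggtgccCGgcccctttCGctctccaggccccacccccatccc
Rarg-201: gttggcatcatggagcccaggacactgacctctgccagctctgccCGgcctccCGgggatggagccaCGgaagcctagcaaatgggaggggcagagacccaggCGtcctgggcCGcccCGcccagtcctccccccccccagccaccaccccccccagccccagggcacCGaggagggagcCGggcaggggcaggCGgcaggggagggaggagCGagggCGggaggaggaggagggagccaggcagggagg

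Over the members, 35 had a RefSeq start within 1000 bases of the start of their leading transcript in replicate 1. The rest, detected members among them, were left out. For Pgr, Nr4a3 and Esr2, with 0 counts in replicate 1, identifier order alone set the leading transcript. Of the 35, the 17 detected ones had a median of 17 CG pairs in 250 bases and the 18 others a median of 10. This is a description of the windows and not of a cause.

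Nuclear receptors bind the half-site AGGTCA or close variants of it, alone or as repeats, and their own start windows were searched for it on both strands. The hexamer AGGTCA stood in 11 of 61 member windows (18.0%), from 41 members with a RefSeq start, against 14.0% of all windows. Direct repeats were searched with spacings of 0 to 5 bases, in which either copy could be AGGTCA itself, its known variant AGTTCA, the related hexamer GGGTCA, or the related hexamer GGTTCA. A repeat with spacing 5, the classical retinoic acid response element, was found in 29 windows in all (0.0883%), and Rarb was the only member among them, 53 bases before its RefSeq start. The half-sites GGTTCA and AGTTCA of Rarb are among the hexamers searched for, so its match followed from the choice of pattern. No member window held a repeat with spacing 0 to 4. Over all windows each of these spacings was found in 0.0396% to 0.186%, so none among 61 is near the background. The Rarb site (chr14:16575507-16575536, minus strand) is the textbook element through which retinoic acid drives this gene. It lies before the RefSeq start at 16575476 but downstream of the annotated start of Rarb-201 at 16575543. Rarb-201 is the only Rarb form quantified here, so its share of the TPM does not bear on the start. Transcript ends were not measured, so whether the site lies upstream of the RNA made here cannot be told. The Rarb site is shown with both half-sites and the spacer in capitals, beside 4 single half-sites (capitals) before the leading or downstream starts of other members: Nr5a2 (chr1:136960495-136960524, minus strand), Thrb (chr14:17660764-17660793, plus strand), Nr1d2 (chr14:18239166-18239195, minus strand) and Nr1h4 (chr10:89506855-89506884, minus strand, where TGACCT is the half-site read on the other strand).
Rarb: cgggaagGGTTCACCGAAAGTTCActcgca
Nr5a2: atggtttacagcAGGTCAtacatgctggaa
Thrb: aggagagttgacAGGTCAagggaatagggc
Nr1d2: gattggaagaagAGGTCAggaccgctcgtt
Nr1h4: ccgtgtggcattTGACCTccagccagtctt
A match describes letters in a window and is no evidence of binding here. Rarb itself stood at 1.98 and 2.05 TPM, and the other retinoic acid receptor targets were split: of 6 genes listed, 2 were detected, Tgm2 at 72.1 and 62.7 TPM and Dhrs3 at 30.7 and 25.4 TPM.

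Other receptors divided their RNA between forms. Rara-202 held 52.4% and 49.6% of Rara TPM and Rara-204, from an upstream start, 36.4% and 50.4%, so the leading form changed between the libraries. The leading form also changed for Nr1h2, where Nr1h2-204 held 46.8% and 34.3% and Nr1h2-203 held 39.0% and 37.0%, and for Nr1i3, where Nr1i3-208 held 47.0% and 27.8% and the retained-intron form Nr1i3-205 held 6.82% and 32.0%. Nr1i3 had few reads to divide, 94.0 and 75.5 counts. Those 3 genes were the whole of the difference from a complete match.

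The leading form was stable but held less than the bulk of the RNA for Nr1h3, with 54.3% and 46.2% in Nr1h3-201, and for Nr2c2, with 44.1% and 48.1% in Nr2c2-201. Nr3c1-208, a form of 1891 nt, held 59.8% and 58.1% of Nr3c1 TPM, while the long form Nr3c1-203 of 6436 nt held 27.0% and 24.1% of TPM but 1185 and 1371 counts against 742 and 936. Esrra-201 held 81.9% and 82.7%. Nr5a2-201, from the most upstream start of its gene, held 70.4% and 53.8%. For Nr6a1, below the detection limit, Nr6a1-210 went from 67.4% to 24.5% and Nr6a1-201 from 17.9% to 50.0%. With 154 and 180 counts in the gene, its form was not resolved.

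**Figure D2:**
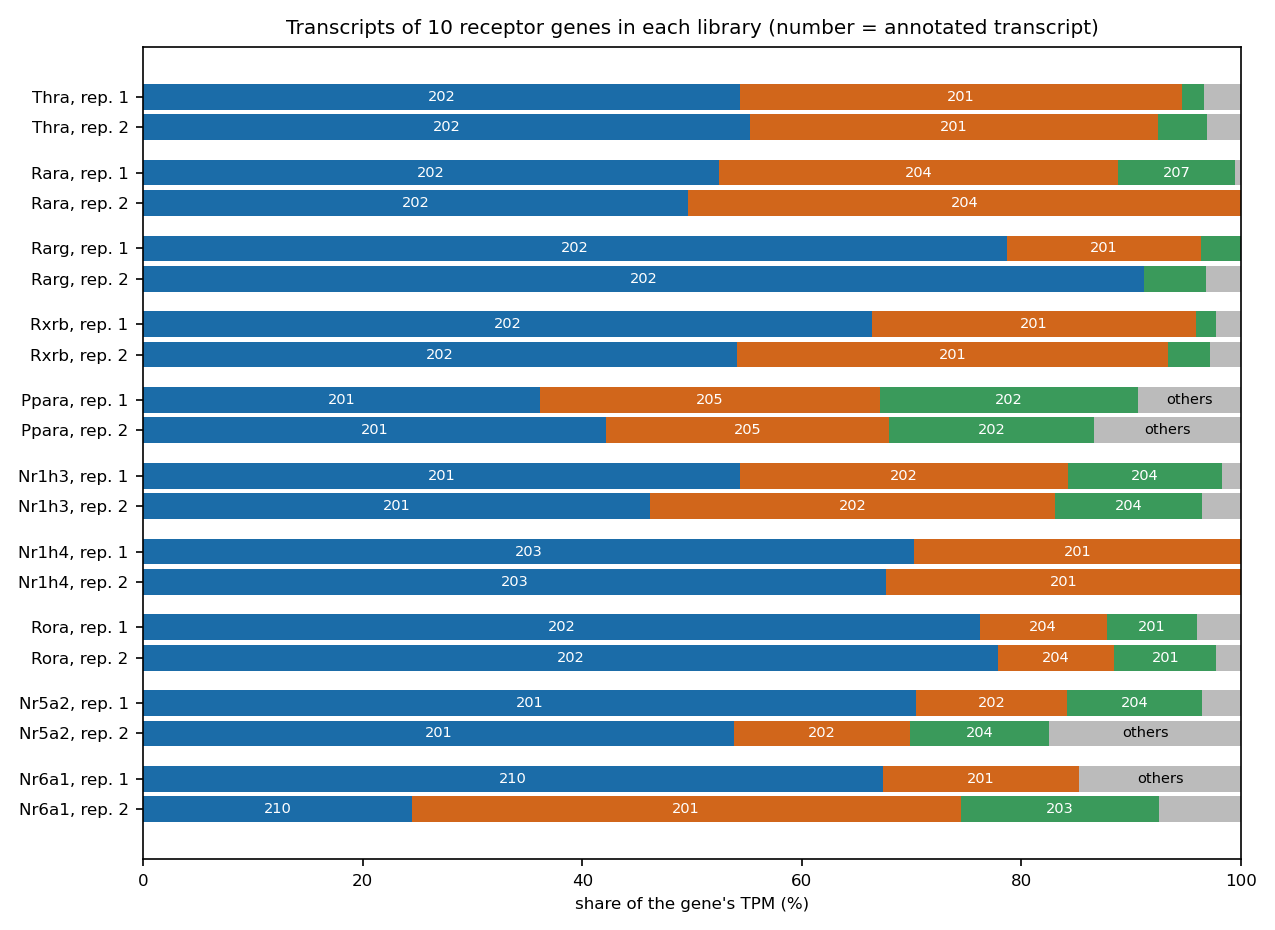
Share of each gene's TPM (%, horizontal) held by its annotated transcripts in replicate 1 and replicate 2 for 10 receptor genes. The numbers name the transcripts. Thra, Nr1h4 and Rora kept nearly the same split in both libraries, while Nr6a1 changed from 67.4% to 24.5% for transcript 210.

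Between the 2 pools, 0 of the 25 members at 1 TPM or more in either library differed over 2-fold. Over all such genes 2.68% did, so a count of 0 among 25 is near the background and is not a result about the family. The log2 ratio of replicate 2 to replicate 1 (TPM + 0.1) of detected members ran from -0.43 to 0.21, with a median of -0.12 against -0.054 over all detected genes. Of the 24, 17 (70.8%) had the lower TPM in replicate 2, where 61.6% of detected genes did, but with counts scaled by the spike-ins 7 (29.2%) were lower and 17 higher, where 21.6% of detected genes were lower. That scaling moved the median of all detected genes to 0.13. The median of members minus that of all genes was -0.068 by TPM. With counts in place of TPM it was -0.081, both by library totals and by spike-ins. A common scaling factor shifts both medians nearly alike, so the spike-in value is no separate check.

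Exact 95% intervals of the count ratio, which cover counting error only, lay below equality for 8 of the 25 members (32.0%) and above it for 0, against 21.6% below and 19.7% above over all such genes. The 8 were Ppara, Nr1i3, Rora, Esrra, Rxra, Nr2c2, Rxrb and Nr2f6. Scaled by spike-in counts, 3 remained below, Ppara, Rora and Nr1i3, and 4 lay above (Nr1h2, Nr1h3, Nr2f2 and Thrb). Over all such genes that scaling gave 5.84% below and 46.5% above. Nr1i3 had the lowest count ratio of the 8, at 0.623 (0.454 to 0.852) by library totals and 0.689 (0.502 to 0.942) by spike-ins. Ppara had a count ratio of 0.756 (0.704 to 0.812) by library totals and 0.837 (0.779 to 0.899) by spike-ins, and Rora 0.811 (0.729 to 0.901) and 0.897 (0.807 to 0.997). By TPM, 11 of 12 hepatocyte markers were lower in replicate 2, beside 61.6% of detected genes, with a median log2 ratio of -0.30. So were all 8 endothelial markers (median -0.16) and 8 of 10 macrophage markers (-0.23). Of 8 granulocyte markers, 5 were higher (median 0.053). Lower values in replicate 2 were thus not particular to hepatocyte markers. Markers of neighbouring tissues also differed, with all 5 bile duct markers lower in replicate 2 (26.7 and 13.4 TPM summed), 11 of 12 exocrine pancreas markers lower (163 and 53.4 TPM, Pnlip at 0) and all 9 muscle markers higher. Their part in the receptor ratios was not tested.

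**Figure D3:**
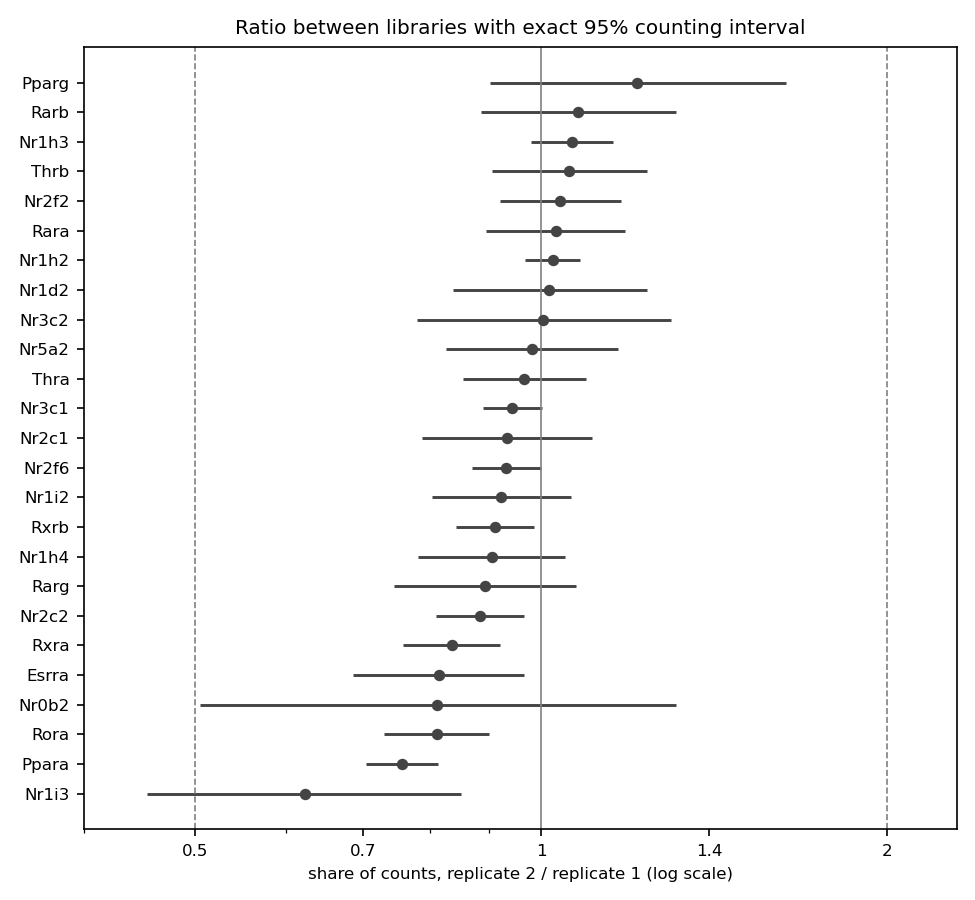
Ratio of the share of counts in replicate 2 to replicate 1 (log scale, by library totals) for the 25 receptor genes at 1 TPM or more in either library, with exact 95% counting intervals and dashed lines at 2-fold. All 25 points lie inside the dashed lines, and 8 intervals lie wholly left of equality. With spike-in scaling 3 lie below equality and 4 above, against 5.84% and 46.5% of all such genes.

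RNA of the partner proteins of receptors was compared with the 53.1% of protein-coding genes detected. All 12 genes listed as corepressors, a list that includes Zfp335, were detected. They ran from Tbl1xr1 at 3.41 and 2.70 TPM to Gps2, a subunit of the NCoR complex, at 91.0 and 83.8 TPM. Of 13 coactivators 12 were detected, from Smarca4, the motor of a chromatin remodelling complex, at 22.7 and 20.7 TPM down to the undetected Ncoa1 at 0.860 and 0.836 TPM. Ppargc1b, a partner of the ERR and PPAR receptors, varied most, at 1.52 and 1.10 TPM. All 8 chaperone genes that hold steroid receptors ready for hormone were detected, led by Hspa8 at 1082 and 957 TPM, with Fkbp5 lowest at 16.1 and 13.7 TPM.

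Of 27 genes that supply or clear the ligands 12 (44.4%) were detected, beside that 53.1%. Of 7 thyroid hormone genes 3 were detected. Ttr, the carrier transthyretin, led with 1408 and 1141 TPM, and the barrier transporter gene Slco1c1 had 1 and 0 counts. Of 11 retinoid genes 3 were detected, and the clearing enzyme Cyp26b1 was lowest at 0.0725 and 0.0310 TPM. Crabp1, at 1.05 and 0.774 TPM, differed most among those reaching 1 TPM. Of 9 steroid and vitamin D genes 6 were detected, led by Hsd11b1, which regenerates active glucocorticoid, at 18.1 and 11.8 TPM. Cyp24a1, which degrades vitamin D, had 0 counts in both libraries.

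Among genes known as receptor targets in adult liver, the detected share differed from list to list and is given beside the same 53.1%. Of 13 PPARα targets 10 were detected, with Fabp1, a fatty acid carrier, at 410 and 453 TPM and Fgf21 at 0. Of 8 LXR targets 6 were detected, from Lpcat3, a membrane lipid enzyme, at 79.5 and 75.6 TPM to the sterol exporter Abcg5 at 0.528 and 0.454 TPM, with Abca1 at 13.7 and 10.7 TPM. Of 8 FXR and LRH-1 targets 5 were detected. Abcb4, the bile phospholipid pump, was at 23.1 and 20.9 TPM, the bile acid enzyme gene Cyp8b1 at 8.85 and 4.04 TPM, and Slc51a at 0.0829 and 0.124 TPM.

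Of 8 PXR and CAR targets 4 were detected, with the P450 reductase gene Por at 42.2 and 34.2 TPM and Cyp2c29 at 0. Glucocorticoid receptor targets gave 5 of 9, with the phosphatase Dusp1 at 28.9 and 27.4 TPM and G6pc, the last enzyme of glucose release, at 0.0311 and 0.0206 TPM. Thyroid hormone receptor targets gave 3 of 6, of which Bcl3 was the highest at 4.79 and 4.32 TPM, Klf9 stood at 1.20 and 1.35 TPM and Dio1, the deiodinase, at 0.0621 and 0.0310 TPM. For the retinoic acid list the lowest gene was Hoxb1, with 0 and 1 counts. All 8 ERR targets, genes of mitochondrial energy supply that every cell uses, were detected, led by Atp5b at 1783 and 1724 TPM, with Pdk4 lowest at 2.91 and 2.60 TPM and Acadm at 91.6 and 75.2 TPM. Of 15 clock genes beside the receptors 12 were detected, with Bhlhe40 at 12.9 and 12.1 TPM, Per2 at 3.17 and 2.12 TPM and Bhlhe41 at 0.0311 and 0.145 TPM. Over all related lists, 94 of 133 genes (70.7%) were detected, against 53.1% of protein-coding genes. The lists were not drawn at random. Other factors also drive these targets, so their levels do not measure receptor activity.

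**Figure D4:**
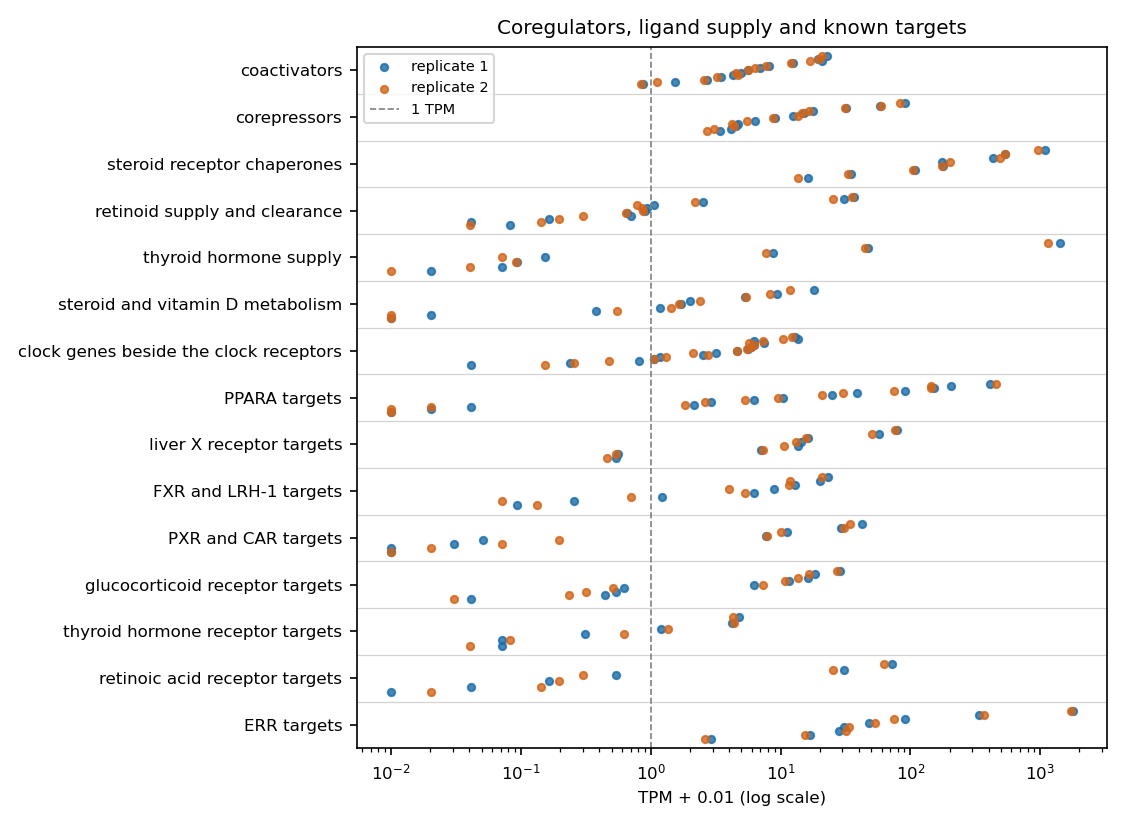
TPM + 0.01 (log scale) of each gene of the lists of coregulators, chaperones, ligand supply and known targets in replicate 1 (blue) and replicate 2 (orange), with a dashed line at 1 TPM. All genes of the corepressor, chaperone and ERR target lists lie right of the line, and 8 of 11 retinoid genes lie left of it in at least 1 library.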

How the data were processed

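Total RNA of 2 liver libraries (1 group) was analysed from the deposited gene and transcript tables. The deposited expected counts are the authors' estimated reads per gene and transcript, not scaled. The authors also deposited TPM, an abundance corrected for length, and a posterior mean of it. Per the labels' companion descriptions they were made on mm10 with annotation M4. The sources used here name neither aligner nor quantifier nor strand setting. TPM was rescaled to 1000000 after 97 spike-in rows were left out, and 26248 rows with numeric identifiers (15.0 and 24.9 counts) were left out. Symbols and coordinates came from GENCODE M21 (GRCm38), later than M4, which named 42462 of 43346 genes. Start windows are RefSeq's (GRCm38.p6).

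Detection meant at least 1 TPM in each library. Log2 ratios used TPM + 0.1, and genes past 2-fold were counted among those at 1 TPM in either library. Count-ratio intervals were exact (Clopper-Pearson, 95%), on rounded expected counts scaled by library totals, and were tested on simulated data. They cover counting error only, since PCR copies are not independent molecules. Starts within 1000 nt were joined. With 1 group, no p-value was computed. All members were named. Of each related list the rule named the highest gene, the lowest and the most different between libraries among those at 1 TPM in either; some of these are not reported here. Transcripts were named for preset genes and for members whose leading form held under 60% or changed, and other transcripts, retinoic acid receptor targets, list genes and sequences were named after their values were seen. Of 262 related and marker symbols 2 were not matched. The members and lists were chosen with earlier results of these data known. Alternatives were other detection limits and pseudocounts, posterior mean TPM, counts in place of TPM, TMM (edgeR 4.0.16), DESeq2 1.42.0 size factors and spike-in scaling, and each library alone. The tools were R 4.3.3, SciPy 1.17.1, Python 3.11.15, matplotlib 3.10.9, NumPy 2.4.6 and pandas 2.3.3.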

Additional observations from a re-analysis of the deposited data

How the results depend on the processing

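With each library alone, 24 to 25 members were detected, their sum was 209 to 230 TPM, and 94 to 96 related genes were detected. At a limit of 5 TPM 10 members were detected. The summed level of 220 TPM became 468 when expected counts scaled to a total of 1000000 were used, 357 TPM without the 4 adult globin genes, and 200.0 TPM over transcripts of at least 1000 nt, the last chosen after the data were seen. The median log2 ratio of members was 0.054 with spike-in scaling. At 5 TPM or more, 9 of 10 members kept 1 leading transcript. Scaling by spike-in counts, also chosen after the data were seen, left 3 members with an interval below equality in place of 8 and put 4 above it in place of 0, while over all genes the share below went from 21.6% to 5.84% and the share above from 19.7% to 46.5%. TMM and DESeq2 size factors left 7 below. No member passed 2-fold under the alternatives run for that count: the other pseudocount and filters, TMM, DESeq2 and spike-in scaling, and the use of counts or of the posterior mean. Posterior mean TPM moved 22 of the 45 members beyond their spread between libraries, and 1 detected member, Rarg, by over 1.5 times (5.22 against 2.69 TPM). The same held for 11 undetected members, such as Vdr (0.548 against 0.134 TPM) and Nr4a2 (0.687 against 0.264 TPM), and 2 members at 0 TPM had a posterior mean above 0. No paired analysis was possible because the series holds 1 group. Values below 10 counts and the split between overlapping transcripts are limited by depth.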
